A study of Mus musculus with 27 samples.

Results

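ES–LB mesenchyme, the limb bud mesenchyme grown from mouse embryonic stem cells (mESCs), was set against the embryonic heart (Ca) to ask which genes of heart stroma and valves the cultured cells share with the heart. The comparison used 9 of the 27 libraries of the series, chosen by their labels: 3 of ES–FLB, 3 of ES–HLB and 3 of Ca, with the mean of the 2 ES groups taken against Ca. ES–FLB and ES–HLB came from aggregates of the mESC line EB5 Hand2::GFP +/-, a line heterozygous for a GFP reporter at Hand2, on day 9 of culture. All ES aggregates had received BMP4 with Matrigel, then the BMP inhibitor LDN193189 and Wnt3. From the middle of the culture their medium also held hydrocortisone and methylcellulose. The ES–FLB aggregates had also received retinoic acid (RA), and the ES–HLB aggregates an RA antagonist. The organoids were trypsinized, and the Hand2::GFP positive mesenchyme was sorted by FACS from many pooled organoids. Ca was the whole heart of Slc:ICR embryos at E10.5, taken from 3 embryos, and no sort is named for it. FLBs and HLBs of E10.5 Slc:ICR embryos (6 libraries), also whole tissue, are given beside heart results as the in vivo limb level, and 5 of these libraries remain for genes in the part of the genome that 1 HLB library lacks. Strain, culture, dissociation and sorting all differed between ES–LB and Ca and cannot be told apart from the tissue, and all ES libraries came from a single reporter line.

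In the embryonic heart, mesenchyme arises when endocardial cells of the cushions leave their epithelium, and this cushion mesenchyme becomes the valves, with a matrix rich in hyaluronan, versican, periostin and fibrillar collagens. A further source is the epicardium, the mesothelium that covers the heart and gives rise to fibroblasts and to mural cells of the coronary vessels. Limb bud mesenchyme comes from the lateral plate mesoderm, as much of the heart does, and the transcription factor Hand2 is active in both. Hand2 itself was at 143 to 167 CPM in ES–FLB, 224 to 247 in ES–HLB and 146 to 161 in Ca. The ES cells had been sorted on this locus, so tissue and sort cannot be told apart in its level.

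The libraries held about 6567395 to 7877486 reads in ES–LB and 7428122 to 8346124 in Ca, as estimated from the smallest steps of the deposited values, so that 3 reads correspond to 0.359 to 0.457 CPM. Levels are given as TMM-scaled CPM and are comparable between samples but not, without gene length, between genes. The heart label matched its markers. Myl2, the ventricular myosin light chain, was at 4243, 3316 and 3181 CPM in Ca and at 0.132 to 0.492 CPM in the 6 ES–LB libraries. Nkx2-5, a cardiac transcription factor, was at 131 to 178 CPM in Ca and at 0.257 to 1.21 in ES–LB. The groups lay far apart for both markers. All 41 genes of a cardiomyocyte list were over 2-fold higher in Ca, and their summed level was 39563 to 47581 CPM in Ca against 413 to 533 in ES–LB. Of a blood list, 12 genes summed to 24818 to 35956 CPM in Ca, to 7.13 to 10.54 in ES–FLB and to 93.7 to 174 in ES–HLB. Muscle and blood RNA thus took a measured part of each Ca library, and in such bulk samples fewer cells of a type and less RNA per cell cannot be told apart.

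Each of the 14470 tested genes was placed by limma as over 2-fold higher in ES–LB, over 2-fold higher in Ca, within 2-fold (the 95% interval of the log2 difference lay inside -1 to 1) or not resolved. Of all genes, 80.8% passed an adjusted p of 0.05, 9.51% were over 2-fold higher in ES–LB, 12.8% were over 2-fold higher in Ca and 57.8% were within 2-fold. The stroma and valve genes, the union of a valve, an epicardium and a fibroblast and mural list, numbered 138, of which 137 were in the table and 135 passed the filter on low values. Of these 135, 32 (23.7%) were over 2-fold higher in ES–LB, 31 (23.0%) were over 2-fold higher in Ca, 36 (26.7%) were within 2-fold and 36 were not resolved, and 119 passed an adjusted p of 0.05. Their median log2 difference was 0.25, against 0.03 over all genes tested. The cultured mesenchyme therefore held some heart stroma genes at the heart's level, others far above it and others far below, and the members are given below by role.

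**Figure D1:**
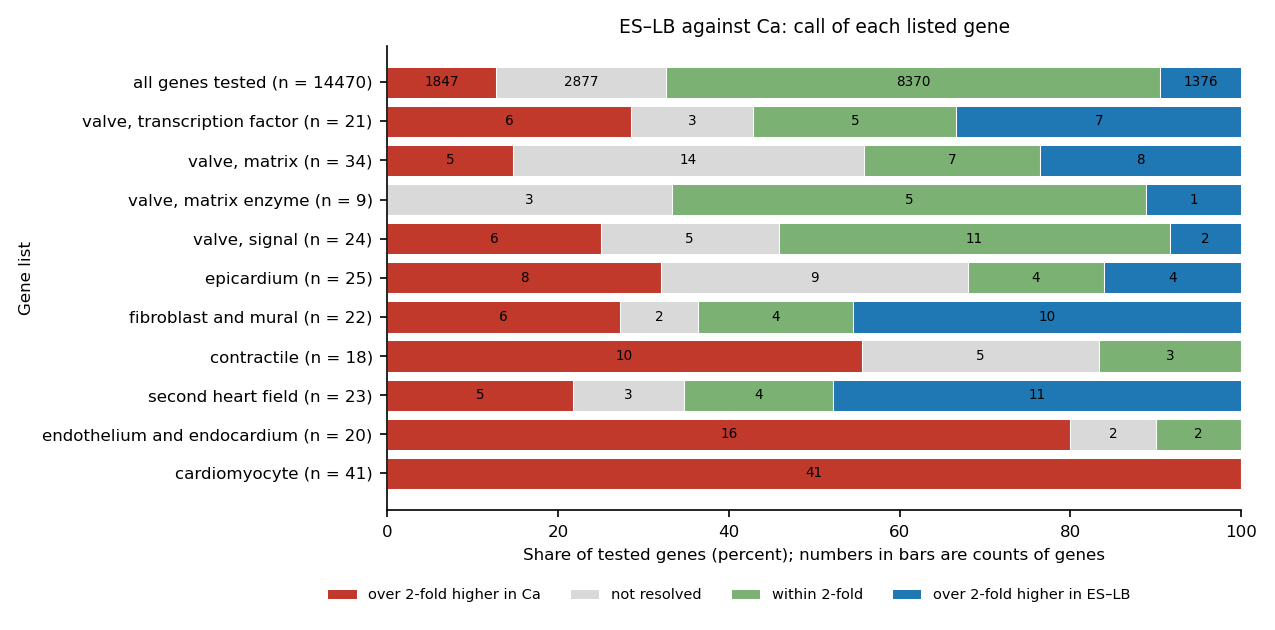
Call of each tested gene in ES–LB (6 libraries) against Ca (3 libraries) by gene list, as the percent of the tested genes of each list, with counts printed in the bars. The union lists split between both directions (8 of 34 valve matrix genes higher in ES–LB and 5 higher in Ca), while all 41 cardiomyocyte genes and 10 of 18 contractile genes were over 2-fold higher in Ca.

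A group of valve matrix genes stood near the heart's level or above it in ES–LB, and well above the limb buds. Postn encodes periostin, a matricellular protein of cushions and valves (chromosome 3, 54359267 to 54391041, GRCm38.p6). It was at 245, 212 and 229 CPM in ES–FLB, 357, 365 and 389 in ES–HLB and 236, 147 and 190.05 in Ca. The E10.5 limb buds held 7.68 to 19.5 CPM. The ES–FLB and Ca values of Postn overlapped, while the ES–HLB values lay above all Ca values. Every limb bud library lay below all of these. The log2 difference of Postn was 0.63 against Ca (SE 0.38, adjusted p = 0.13, not resolved) and 4.31 against the limb buds (SE 0.31, adjusted p = 1.3e-10, 19.9-fold). Dcn, the small proteoglycan decorin (chromosome 10, 97479500 to 97518163), was at 61.4, 63.2 and 63.4 CPM in ES–FLB, 91.1, 80.3 and 90.9 in ES–HLB and 50.1, 42.2 and 49.1 in Ca, against 0.536 to 2.58 in the limb buds. Its ES–LB libraries lay above all Ca libraries, and both lay above all limb buds. The log2 difference was 0.65 against Ca (SE 0.35, adjusted p = 0.0917, not resolved) and 5.30 against the limb buds (39.4-fold, adjusted p = 7.7e-13). The fit restricted to the 9 ES–LB and Ca libraries gave narrower intervals, and there Postn and Dcn were within 2-fold of Ca at the same differences. Both were nevertheless higher in ES–LB than in Ca in that fit (limma, adjusted p = 0.00548 for Postn and 1.07e-08 for Dcn).

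Fbn1, fibrillin-1 of the elastic microfibrils (chromosome 2, 125300594 to 125506485), was at 275, 262 and 246 CPM in ES–FLB, 196, 193 and 214 in ES–HLB and 167, 164 and 209.8 in Ca. The limb buds held 23.2 to 41.1 CPM. Fbn1 was within 2-fold of the heart, with a log2 difference of 0.35 (95% interval 0.17 to 0.53), and 6.94-fold above the limb buds. Bgn, the proteoglycan biglycan, was at 61.6 to 69.9 CPM in ES–FLB, 115 to 132 in ES–HLB and 90.4 to 103 in Ca, so that Ca lay between the ES groups, and its log2 difference from Ca was -0.11 (95% interval -0.29 to 0.06). Eln, elastin, was at 13.8 to 16.2 CPM in ES–FLB, 24.5 to 24.97 in ES–HLB and 24.3 to 32.4 in Ca, and was within 2-fold (log2 difference -0.59). The call of Eln was lost with a pseudocount of 0.1 (-0.60), with ES–FLB alone (-0.95), without ES–FLB replicate 2 (-0.62) and without Ca replicate 2 (-0.72). Col5a1, a fibrillar collagen chain, and Mmp14, a membrane-bound matrix protease, were within 2-fold of Ca (log2 differences 0.41 and 0.46). All 5 of these genes, Fbn1 included, were over 2-fold higher in ES–LB than in the limb buds, with log2 differences of 1.43 for Mmp14 to 2.79 for Fbn1. For Bgn this call was lost with ES–FLB alone (1.15, not resolved).

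Vcan, the cushion proteoglycan versican, was at 1835 to 1964 CPM in ES–FLB, 1252 to 1385 in ES–HLB and 796 to 949 in Ca, and Has2, the enzyme that makes hyaluronan, at 124 to 147, 85.7 to 104 and 48.9 to 57.2 CPM. These 2 genes, which begin the cushion matrix, lay above Ca in every ES–LB library, by 1.82-fold for Vcan and 2.09-fold for Has2, and passed an adjusted p of 0.05 but not the test for over 2-fold. Tnc, tenascin-C, was at 393 to 410.2 CPM in ES–FLB, 174 to 186 in ES–HLB and 101, 88.3 and 249 in Ca. A single Ca library, replicate 3, thus lay above ES–HLB, and the log2 difference was 1.04 (SE 0.32, adjusted p = 0.00596). Adamts1, a protease that cleaves versican, and Cyr61, a matricellular protein and immediate early gene, had log2 differences of 0.95 and 1.05 from Ca. Against the limb buds Vcan, Has2, Tnc, Adamts1 and Cyr61 were over 2-fold higher in ES–LB, from 3.54-fold for Vcan to 29.2-fold for Tnc.

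**Figure D2:**
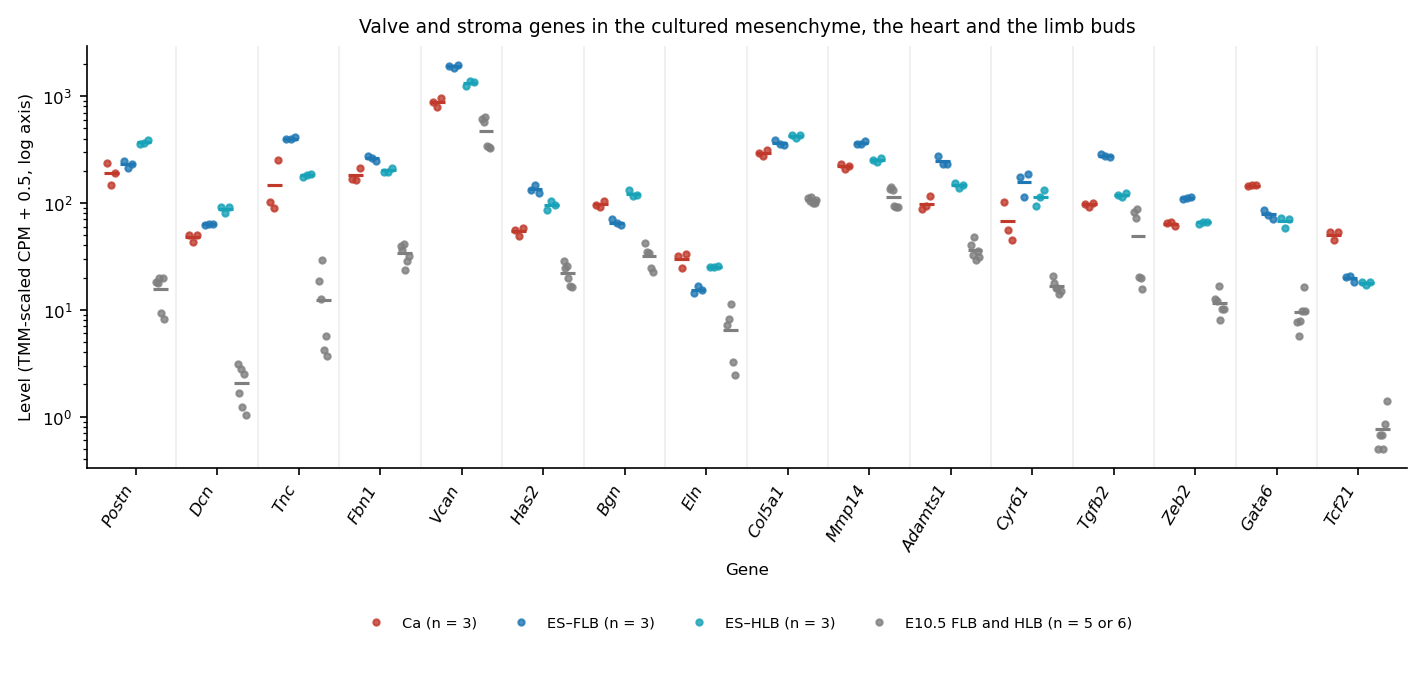
Level of 16 valve and stroma genes in each library (points) with the group mean (bars), as TMM-scaled CPM + 0.5 on a log axis, in Ca, ES–FLB, ES–HLB and E10.5 limb buds. For Postn, Dcn and Fbn1 every ES–LB library lies above every limb bud library, and for Dcn also above all 3 Ca libraries. The ES–FLB libraries for Postn and the ES–HLB libraries for Fbn1 overlap Ca, and the other ES group lies above Ca. For Tnc the ES–FLB libraries lie above all 3 Ca libraries, and for Tcf21 the ES–LB libraries sit between Ca and the limb buds.

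Other matrix genes were far above the heart in ES–LB. Col6a3, a chain of the microfibrillar collagen VI, was at 259 to 278 CPM in ES–FLB, 375 to 389.7 in ES–HLB and 7.55 to 12.7 in Ca, a log2 difference of 5.00 (SE 0.18, adjusted p = 1.95e-16). The partner chains Col6a1 and Col6a2 were also over 2-fold higher (log2 differences 2.54 and 2.17). Lum, the collagen-binding proteoglycan lumican, was at 155 to 181 CPM in ES–FLB, 322 to 363 in ES–HLB and 6.23 to 11.97 in Ca (log2 difference 4.73). Col3a1 and Col1a2, fibrillar collagen chains, were higher by 2.25 and 2.18 on the log2 scale, and for Col3a1 the ES–LB libraries held 3828 to 4192 CPM against 773 to 939.9 in Ca. These 6 genes were over 2-fold higher than in the limb buds as well, so their level in ES–LB was that of neither tissue.

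The reverse was seen for a few cushion components. Hapln1, the link protein that ties versican to hyaluronan (chromosome 13, 89540529 to 89611832), was at 386, 313 and 309.9 CPM in Ca, 5.64, 4.74 and 5.16 in ES–FLB and 7.71, 9.75 and 7.6 in ES–HLB. The limb buds held 36.2 to 60.3 CPM, so that Hapln1 was lowest in the cultured cells. Its log2 difference was -5.57 against Ca (SE 0.15, adjusted p = 3.02e-18) and -2.78 against the limb buds (adjusted p = 2.04e-14). Ctgf, a matricellular protein of the same family as Cyr61, was at 3.43 to 5.78 CPM in ES–LB and 53.5 to 82.9 in Ca (log2 difference -3.65). Sparc, osteonectin, was over 2-fold higher in Ca (log2 difference -2.15). In all, of 34 tested valve matrix genes 8 were over 2-fold higher in ES–LB, 5 were higher in Ca, 7 were within 2-fold and 14 were not resolved, and of 9 matrix enzymes 1, 0, 5 and 3. Against the limb buds 19 of the 34 matrix genes were over 2-fold higher in ES–LB and 1 was lower, where 7.84% and 3.74% of all genes were. This and the other lists were chosen with earlier results of these data known, so such shares are a description without a test.

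**Figure D3:**
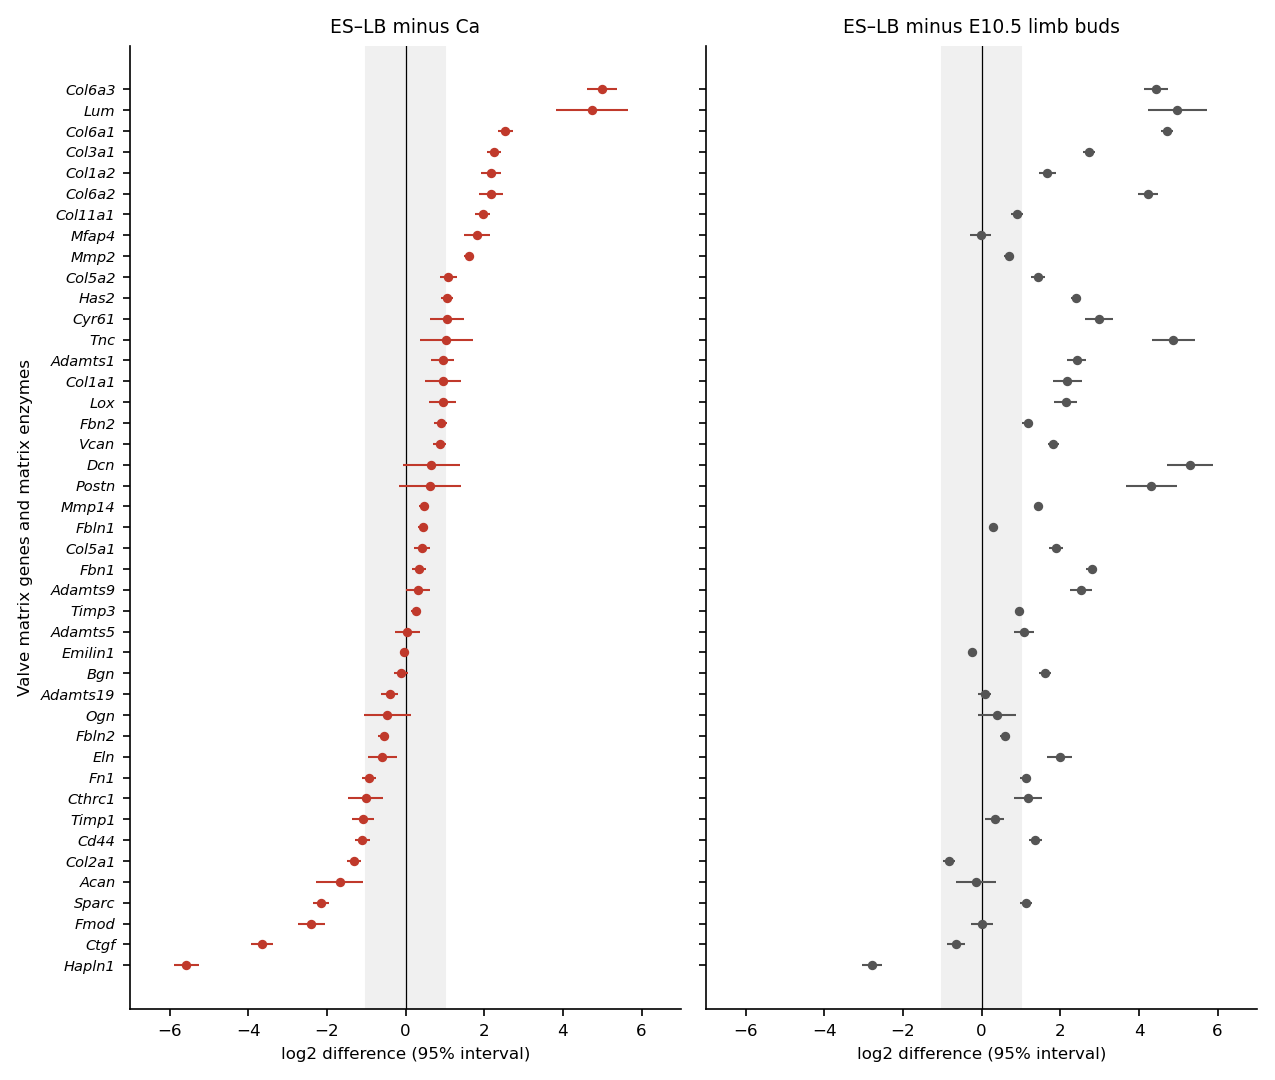
Log2 difference with its 95% interval for 43 valve matrix genes and matrix enzymes, ES–LB minus Ca on the left and ES–LB minus E10.5 limb buds on the right, ordered by the difference from Ca, with the 2-fold band shaded. Hapln1 lies at the low end of both panels, Col6a3 and Lum at the high end of the left panel, and Postn and Dcn inside or across the band on the left and above 4 on the right. Both panels use the same ES–LB libraries.

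Of 21 transcription factors of the valve list 7 were over 2-fold higher in ES–LB, 6 were higher in Ca, 5 were within 2-fold and 3 were not resolved. The factors Twist1, Prrx1, Tbx2 and Snai2 were over 2-fold higher in ES–LB. Twist1, a regulator of cushion and limb mesenchyme, was at 446 to 473 CPM in ES–FLB, 399 to 433 in ES–HLB and 36.6 to 60.8 in Ca (log2 difference 3.30). Prrx1, a marker of limb mesenchyme, was at 455 to 664 CPM in ES–LB and 13.9 to 31.05 in Ca (log2 difference 4.81), and at 646 to 741 in the limb buds. Zeb2, Zeb1 and Sox9, factors of mesenchyme and of early cartilage and valve progenitors, were within 2-fold of Ca (log2 differences 0.42, 0.29 and 0.57), a call lost for Sox9 with CPM as deposited (0.75) and with ES–HLB alone (0.70) and for Zeb2 with ES–FLB alone (0.80). Zeb2 alone among these 3 was over 2-fold higher than in the limb buds: it was at 109 to 113 CPM in ES–FLB, 63.4 to 66.5 in ES–HLB, 60.01 to 65.5 in Ca and 7.53 to 16.2 in the limb buds.

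Gata4, Gata6 and Tbx20, cardiac factors of this list, lay between heart and limb bud, and Gata5 did not. Gata4, which acts in heart muscle and cushions, was at 37.7, 30.7 and 29.3 CPM in ES–FLB, 9.64, 12.5 and 11.5 in ES–HLB and 362, 321 and 329 in Ca, while the limb buds held 0.179 to 2.81. Tbx20 was at 6.64 to 9.22 CPM in ES–FLB, 12.8 to 17.9 in ES–HLB, 389.98 to 456 in Ca and 0 to 0.735 in the limb buds. None of these groups overlapped. Gata4 and Tbx20 were over 2-fold higher in Ca (log2 differences -4.11 and -5.16) and over 2-fold higher in ES–LB than in the limb buds (3.66 and 4.15). Gata6 came nearest to the heart, with 69.9 to 85.5 CPM in ES–FLB, 58.2 to 71.7 in ES–HLB, 143 to 147 in Ca and 5.18 to 15.7 in the limb buds. Its log2 difference was -1.01 against Ca (SE 0.30, not resolved) and its level was 8.02-fold that of the limb buds (adjusted p = 8.7e-10). Gata5 and Nfatc1, which mark endocardium, were over 2-fold higher in Ca (log2 differences -5.02 and -2.77) and not over 2-fold higher in ES–LB than in the limb buds. Against the limb buds Gata5 was at 0.32 on the log2 scale (adjusted p = 0.324), at 1.74 with ES–FLB alone and at -1.10 with ES–HLB alone.

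Among 24 valve signal genes 2 were over 2-fold higher in ES–LB, 6 were higher in Ca, 11 were within 2-fold and 5 were not resolved. The share within 2-fold was 45.8%, below the 57.8% of all genes, and the share higher in Ca was 25% against 12.8%. The receptors Tgfbr1 and Bmpr1a were within 2-fold (log2 differences 0.59 and 0.30). Bmp4, a ligand, was over 2-fold higher in ES–LB (log2 difference 1.24), but its value was 1.14 and not resolved without Ca replicate 2, and 0.72 and within 2-fold with ES–HLB alone. Tgfb1 and Hey2, a ligand and a Notch target, were over 2-fold higher in Ca (-2.13 and -3.89). Tgfb2, the TGF-beta ligand of the cushions, was at 271 to 285 CPM in ES–FLB, 113 to 124 in ES–HLB, 91.8 to 99.5 in Ca and 15.00 to 86.3 in the limb buds. Tgfb2 thus lay close to Ca in ES–HLB alone, and over the mean of the ES groups its log2 difference was 0.91 (SE 0.12, not resolved).

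Of 25 tested epicardial genes 4 were over 2-fold higher in ES–LB, 8 were higher in Ca, 4 were within 2-fold and 9 were not resolved, with a median log2 difference of -1.14. Those higher in ES–LB were Nr2f2, a nuclear receptor, Flrt3, a membrane protein of cell adhesion, Dmkn, a secreted protein of epithelia, and Crabp2, a carrier of RA (log2 differences 1.32, 1.38, 1.61 and 2.63). The call was lost for Nr2f2 with ES–HLB alone (0.55) and without Ca replicate 1 (1.17), and for Dmkn with ES–FLB alone (0.97) and with a pseudocount of 2 (0.72). Upk3b, a surface protein of mesothelium, was at 144, 124 and 159 CPM in Ca and at 0.123 to 0.362 CPM in the ES–LB libraries, at or under the level of 3 reads. Wt1, the epicardial regulator, was at 46.8 to 49.8 CPM in Ca, 2.9 to 4.04 in ES–FLB and 1.15 to 1.45 in ES–HLB (log2 difference -4.24, adjusted p = 1.11e-20). Aldh1a1, a retinal dehydrogenase, was at 34.5 to 43.7 CPM in Ca, 0.735 to 2.09 in ES–FLB and 0 to 0.121 in ES–HLB. These surface and regulator genes were over 2-fold higher in Ca without overlap. Tcf21, a factor of epicardium and of fibroblast precursors, was at 19.9, 20.02 and 17.8 CPM in ES–FLB, 17.9, 16.6 and 17.7 in ES–HLB, 52.6, 44.4 and 53.5 in Ca and 0 to 0.893 in the limb buds. Every ES–LB library lay between the tissues. The log2 difference of Tcf21 was -1.43 against Ca (SE 0.43, adjusted p = 0.00474, not resolved for 2-fold) and 4.71 against the limb buds (26.2-fold, adjusted p = 1.37e-10), and with the 9 libraries alone Tcf21 was over 2-fold higher in Ca. Tbx18, a further epicardial factor that limb mesenchyme also uses, was at 26.8 to 41.7 CPM in ES–LB, 85.3 to 93.8 in Ca and 60.3 to 139.5 in 5 limb bud libraries. Msln did not pass the filter on low values.

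Several fibroblast receptors were higher in ES–LB and several genes of mural cells lower. Pdgfra and Pdgfrb, the PDGF receptors of fibroblasts and mural cells, were over 2-fold higher in ES–LB (log2 differences 2.37 and 2.00), as was Ddr2, a collagen receptor (3.21). Thy1, a surface glycoprotein of fibroblasts, was at 77.96 to 90.1 CPM in ES–FLB, 69.6 to 72.9 in ES–HLB, 2.13 to 3.05 in Ca and 0.184 to 1 in 5 limb bud libraries. Its log2 difference was 4.64 against Ca and 6.34 against the limb buds, the latter being 81.0-fold. Abcc9, a potassium channel subunit of pericytes that heart muscle also expresses, was at 160.1 to 195 CPM in Ca and 1.58 to 3.8 in ES–LB (log2 difference -5.78). Mcam and Eng, surface proteins of pericytes and endothelium, were over 2-fold higher in Ca (-4.01 and -4.72) and, unlike Abcc9, also over 2-fold higher in the limb buds than in ES–LB. Rgs5, a further pericyte gene, was within 2-fold of Ca at 5.67 to 10.3 CPM in ES–LB and 9.27 to 11.1 in Ca, a call that was lost without any 1 of the 3 Ca libraries, ES–FLB replicate 2 or ES–HLB replicate 1. Of 22 tested fibroblast and mural genes 10 were over 2-fold higher in ES–LB, 6 were higher in Ca, 4 were within 2-fold and 2 were not resolved. Higd1b did not pass the filter.

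**Figure D4:**
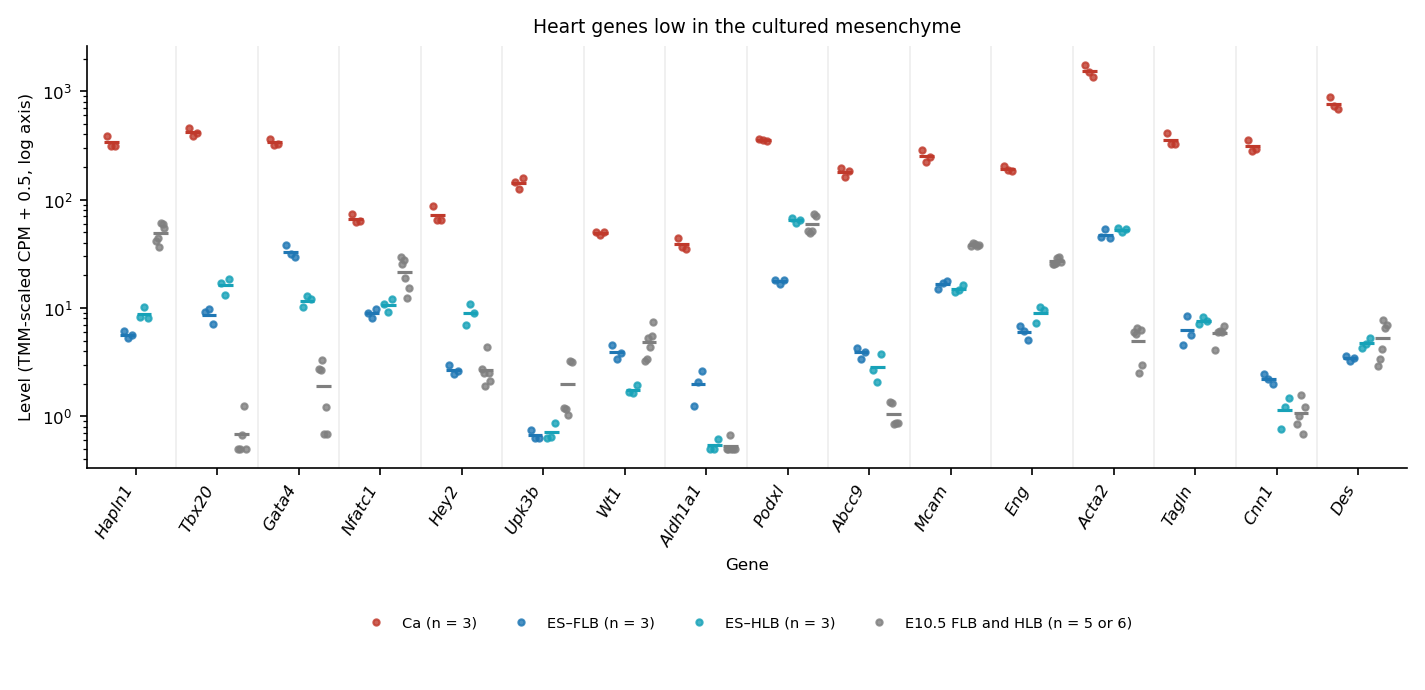
Level of 16 heart genes that were low in ES–LB, in each library (points) with the group mean (bars), as TMM-scaled CPM + 0.5 on a log axis. Every Ca library lies above every ES–LB library, with Upk3b in ES–LB at or under the level of 3 reads, and for Tbx20, Gata4 and Acta2 the ES–LB libraries lie above every limb bud library.

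The contractile list covers smooth muscle proteins, most of which the early heart muscle also makes. Of its 18 genes none was over 2-fold higher in ES–LB, 10 were higher in Ca, 3 were within 2-fold and 5 were not resolved, and their sum was 7639 to 8947 CPM in Ca against 1307 to 1455 in ES–LB. Acta2, smooth muscle actin (chromosome 19, 34240336 to 34255585), was at 1759, 1509 and 1369 CPM in Ca, 44.5, 53.1 and 43.4 in ES–FLB and 54.4, 49.7 and 52.7 in ES–HLB, and at 2.02 to 5.98 in the limb buds. Acta2 was thus 30.8-fold below Ca and 10.7-fold above the limb buds (adjusted p = 9.21e-11 and 1.53e-09). Tagln, Cnn1 and Des, a calponin-related protein, calponin and desmin, were lower than in Ca by 5.71, 7.62 and 7.57 on the log2 scale, and their log2 differences from the limb buds were 0.22, 0.64 and -0.29. Myh11, the myosin of mature smooth muscle, was low in all groups, at 3.3 to 6.01 CPM in ES–LB and 2.78 to 3.98 in Ca. Srf, the factor that binds the CArG box, was at 79.8 to 97.6 CPM in ES–LB and 170.3 to 196 in Ca (log2 difference -0.97, not resolved), and its cofactors Mkl1 and Mkl2 (myocardin-related factors) were within 2-fold (0.64 and 0.78), a call lost for both with CPM as deposited (0.82 and 0.96).

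The promoters of the contractile and cardiomyocyte lists were searched for the CArG box, whose pattern is the same on both strands. Of those that hold one, 3 were chosen after their values were seen, to show the box beside genes far higher in Ca: Myl9 of the contractile list, and Actc1 and Myl7 of the cardiomyocyte list. Those of Cnn2, Srf, Myl3 and Ldb3 also hold the box and are not printed. The sequences are from RefSeq on GRCm38.p6, from 250 bases before to 50 after the start, with the box in capitals. Actc1 is cardiac actin (7497 to 9078 CPM in Ca, 0.79 to 2.31 in ES–LB), Myl9 the smooth muscle myosin light chain (925 to 1107 CPM in Ca, 30.8 to 38.5 in ES–LB) and Myl7 the atrial myosin light chain (1595 to 1873 CPM in Ca, 0 to 1.11 in ES–LB). The promoters are chr2:114052826-114053125 on the minus strand, chr2:156775214-156775513 on the plus strand and chr11:5898733-5899032 on the minus strand.
Actc1: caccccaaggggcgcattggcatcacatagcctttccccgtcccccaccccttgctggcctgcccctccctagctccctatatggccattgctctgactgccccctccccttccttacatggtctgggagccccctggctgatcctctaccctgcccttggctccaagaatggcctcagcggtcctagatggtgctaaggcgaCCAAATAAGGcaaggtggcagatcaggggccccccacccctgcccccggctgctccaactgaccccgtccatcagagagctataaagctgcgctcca
Myl9: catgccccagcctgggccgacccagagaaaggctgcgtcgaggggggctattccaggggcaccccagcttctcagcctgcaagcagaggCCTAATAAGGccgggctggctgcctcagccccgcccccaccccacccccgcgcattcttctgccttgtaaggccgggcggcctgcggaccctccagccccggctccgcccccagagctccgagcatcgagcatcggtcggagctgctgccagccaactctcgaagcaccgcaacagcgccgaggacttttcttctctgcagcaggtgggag
Myl7: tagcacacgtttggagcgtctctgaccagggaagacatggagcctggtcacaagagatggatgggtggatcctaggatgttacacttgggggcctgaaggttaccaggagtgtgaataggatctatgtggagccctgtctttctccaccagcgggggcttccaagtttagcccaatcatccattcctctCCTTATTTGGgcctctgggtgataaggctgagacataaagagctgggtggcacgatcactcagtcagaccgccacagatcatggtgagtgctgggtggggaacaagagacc
The box is in 3 of 15 promoters of contractile genes in the table and in 5 of 40 of cardiomyocyte genes. The latter count includes overlapping promoters of Ldb3 that share the same box. Among the stroma and valve genes 0 of 101 promoters hold it, and among all promoters 535 of 32851 (1.63%) do. A match in this window is a description of the letters and not a sign of use.

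Genes of the progenitors of the second heart field, which feed the outflow tract, split between both directions. Of 23 tested genes 11 were over 2-fold higher in ES–LB, 5 were higher in Ca, 4 were within 2-fold and 3 were not resolved. Against the limb buds 7 were over 2-fold higher in ES–LB, 1 was lower and 10 were within 2-fold. Over all genes 7.84% were higher than in the limb buds and 3.74% lower. Isl1, a marker of these progenitors and of early hindlimb, was at 24.02, 26.6 and 20.2 CPM in ES–FLB, 30.98, 31.96 and 29.9 in ES–HLB, 8.74, 9.81 and 9.47 in Ca and 2.34 to 16.2 in the limb buds. The ES–LB libraries were higher than all others, by 1.48 on the log2 scale against Ca (SE 0.19, adjusted p for over 2-fold = 0.0411), a call that was lost in 8 of the 9 fits that left out 1 library each. Osr1 and Gli1, the latter a target of hedgehog signalling, were over 2-fold higher in ES–LB, by 2.93 and 3.54 on the log2 scale. Mef2c and Hand1, regulators of heart muscle, were over 2-fold higher in Ca (-3.45 and -2.99). Wnt11, a ligand of the outflow tract, was within 2-fold, at 24.4 to 33.6 CPM in ES–LB and 31.1 to 34.7 in Ca. The whole list summed to 1048 to 1111 CPM in ES–FLB, 811 to 858 in ES–HLB and 808 to 901 in Ca. In E10.5 branchial arch (3 libraries) it summed to 808 to 908 CPM, so this summed level was not particular to heart and culture.

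Several lists of markers of other cells and of handling differed between ES–LB and Ca, and others differed little. Of 20 endothelial and endocardial genes 16 were over 2-fold higher in Ca and 2 were within 2-fold, with sums of 214 to 243 CPM in ES–LB and 1651 to 1812 in Ca. Pecam1 was at 2.83 to 7.88 CPM in ES–LB. Npr3, a natriuretic peptide receptor of the endocardium and of other mesenchyme, was nearer to Ca, at 129 to 145 CPM in ES–FLB, 66.8 to 80.8 in ES–HLB, 174 to 206 in Ca and 9.74 to 21.4 in the limb buds. Every ES–LB library still lay below every Ca library (log2 difference -0.89, not resolved). Npr3 was over 2-fold higher in Ca with ES–HLB alone (-1.31). It was within 2-fold with ES–FLB alone (-0.47) and with CPM as deposited (-0.71). Its level in ES–LB was 7.10-fold above the limb buds. Of 8 epithelial genes 4 were over 2-fold higher in ES–LB, 1 was higher in Ca and 3 were not resolved. The keratin Krt5 was among those higher in ES–LB, at 31.6 to 66.8 CPM in ES–LB and 0, 0 and 0.835 in Ca. The epithelial list summed to 119 to 174 CPM in ES–FLB, 231 to 248 in ES–HLB, 97.6 to 156 in Ca and 265 to 304 in the limb buds. The sums of ES–FLB and Ca thus overlapped. The 17 immediate early genes, which respond within minutes to stress or growth factors and which dissociation can raise, summed to 1932 to 2576 CPM in ES–FLB, 1522 to 1774 in ES–HLB, 617 to 814 in Ca and 377 to 429.6 in the limb buds. Of these genes 8 were over 2-fold higher in ES–LB than in Ca, with Egr1 at 396 to 711 CPM in ES–LB and 19.2 to 40.8 in Ca, and 14 were over 2-fold higher than in the limb buds. The part of these cells and of the handling in the levels of the matrix genes, Cyr61 among them, was not tested. Of 10 glucocorticoid response genes, listed because the culture medium held hydrocortisone, 1 was over 2-fold higher in ES–LB, 6 were within 2-fold and 3 were not resolved. These shares, 10% and 60%, were near the 9.51% and 57.8% of all genes. Against the limb buds 3 of the 10 were over 2-fold higher in ES–LB, 0 were lower, 2 were within 2-fold and 5 were not resolved. An effect of hydrocortisone was not tested. Of 7 neural crest and glia genes 1 was higher in ES–LB and 1 in Ca, and of 25 limb mesenchyme factors 17 were higher in ES–LB and 1 in Ca.

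A search over all genes gave a further view of what heart and culture shared. A gene was taken if its lowest value in the 9 Ca and ES–LB libraries was at least 10 CPM and at least 2 times its highest value in the other 18 libraries, and 32 genes met this rule. The other 18 were 3 libraries each of E10.5 FLB, E10.5 HLB, early FLB, early HLB, E10.5 branchial arch and E10.5 tail bud. The early limb buds are labelled E10. Since the levels chose them they are a description without a test. Dcn led, with a lowest value 5.48 times the highest elsewhere, and Tcf21 was also among the first 20. Lmna, lamin A/C of the nuclear envelope, was at 81.1 to 112 CPM in ES–LB, 71.6 to 77.1 in Ca and at most 13.3 in the other libraries. Ccng1, cyclin G1, a target of p53, was at 192 to 259 CPM in ES–LB and 149 to 180.2 in Ca, and Gas6, a ligand of the TAM receptors, at 23.97 to 53.1 and 23.9 to 28.4. Corin, the protease that activates atrial natriuretic peptide, was at 59.7 to 70.3 CPM in ES–FLB and 50.9 to 72.8 in Ca, but at 15.04 to 20.02 in ES–HLB. Mical2, an actin-oxidizing enzyme, was in the set at 28.8 to 46.6 CPM in ES–LB, far under the 441 to 515 of Ca. The ratio of the last gene inside the rule, Sdk1, was 2.02, and that of the nearest gene outside it, Kat2b, was 1.99.

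**Figure D5:**
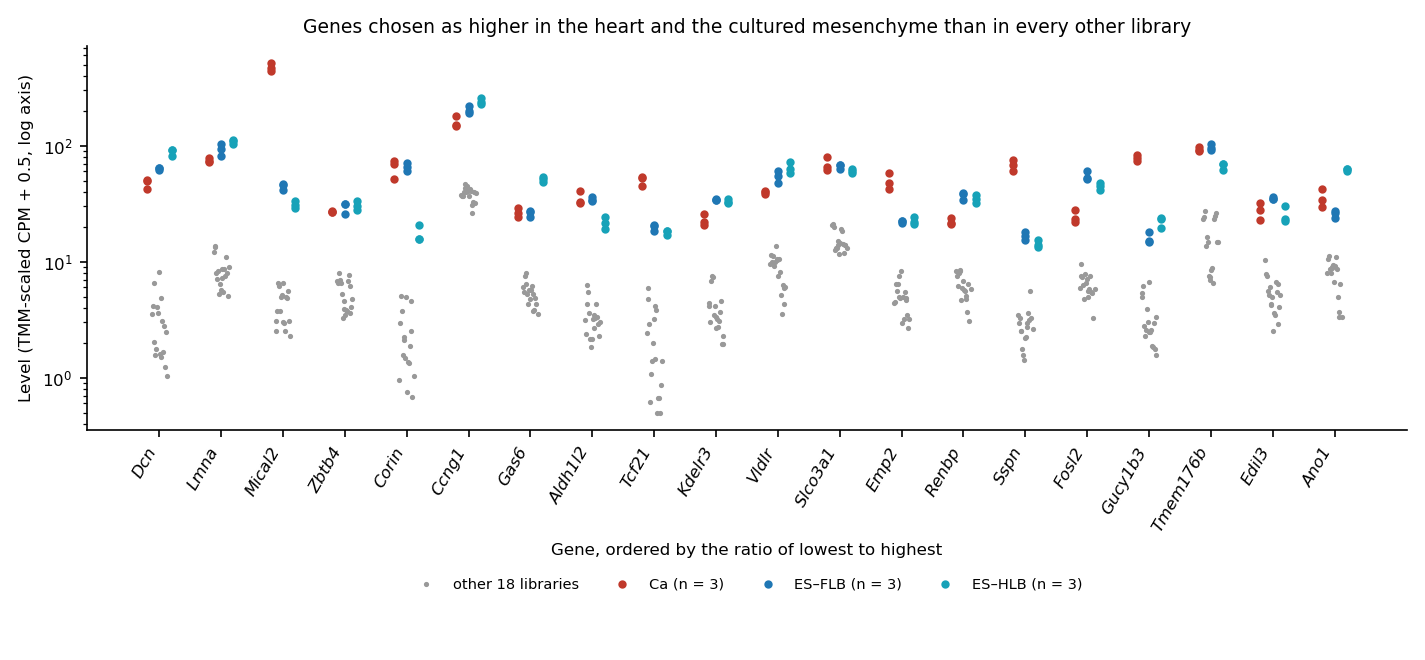
Level of the 20 genes with the highest ratio by the rule above, as TMM-scaled CPM + 0.5 on a log axis, in Ca, ES–FLB and ES–HLB (3 libraries each). Small grey points are the other 18 libraries, of E10.5 and early limb buds, branchial arch and tail bud. The gap between coloured and grey points is what chose the genes. Mical2 lies far higher in Ca than in ES–LB, while for Dcn, Lmna and Ccng1 the groups lie nearer together, with every ES–LB library above Ca.

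The largest differences in the whole table were of another kind. The 10 genes with the largest difference toward Ca, counting genes that reached 16 CPM or more on the higher side, were Myh7, Myl2, Actc1, Myh6, Mybpc3, Myl4, Nppa, Myl7, Hbb-y and Myl3, that is 8 sarcomere genes, the natriuretic peptide Nppa and an embryonic globin. The 10 toward ES–LB were Agtr2, Pcdh10, Hoxa10, Mab21l1, Krt5, Slitrk6, Enpp2, Osr2, Dnm3os and the agouti gene. Agtr2, the type 2 angiotensin receptor, was at 71.1 to 78.1 CPM in ES–LB and listed at 0 in all Ca libraries, and was thus at least 174-fold higher in ES–LB when 3 reads are taken as the limit per library. Hoxa10, a posterior Hox gene, was likewise at 0 in Ca, and at least 140-fold higher.

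The ES groups did not always share a heart level. Among the 135 stroma and valve genes 28 (12 higher in ES–HLB and 16 in ES–FLB) differed between ES–HLB and ES–FLB at an adjusted p of 0.05 with an estimated difference above 2-fold (a looser rule than the test against 2-fold), against 4.46% of all genes. Fmod, the proteoglycan fibromodulin, was at 0.395 to 0.613 CPM in ES–FLB, 20.4 to 25.3 in ES–HLB and 20.8 to 29.4 in Ca, so that it was near the heart in ES–HLB alone. Aldh1a2, which makes RA in epicardium and flank, was at 166 to 177 CPM in ES–FLB, 29.6 to 32.9 in ES–HLB and 39.8 to 68.6 in Ca, and its mean, within 2-fold of Ca with all libraries but not resolved without Ca replicate 3, therefore describes neither group (log2 differences 1.71 with ES–FLB alone and -0.73 with ES–HLB alone). Tbx5, a factor of forelimb and heart, was at 67.95 to 73.6 CPM in ES–FLB, 2.29 to 4.11 in ES–HLB and 92.98 to 112 in Ca, and with ES–FLB alone it was within 2-fold of Ca (log2 difference -0.48). Krt19, a keratin of epicardium and other epithelia, was at 4.78 to 8.11 CPM in ES–FLB, 30.4 to 30.8 in ES–HLB and 21.5 to 24.5 in Ca.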

How the data were processed

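RNA was sequenced as single-end reads from a stranded mRNA kit in 27 libraries of 9 groups, grouped by their titles. Per the submitters' processing notes the tools were FastQC 0.11.5, HISAT2 2.0.4, Cuffdiff, Cufflinks 2.1.1 and edgeR 3.16.2, with mm10 as the build. Per the methods of the study, reads per gene were estimated against the UCSC transcriptome; the strand setting is not given in the sources used here. The deposited table holds CPM, which the authors derived from these estimates, and each column sums to 1000000. In E10.5 HLB replicate 2, genes of chromosomes 5 to 9, X and the end of 4 are listed at 0, and these values were set to missing.

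CPM was rescaled by TMM factors computed on the CPM itself, and 14470 of 23279 genes with at least 1 CPM in 3 or more libraries were kept. Values of log2(CPM + 0.5) were fitted in limma 3.58.1 (R 4.3.3, trend and robust settings) with all 9 groups in 1 model. Fold changes are on this scale, which understates those of low genes. P-values were adjusted by the Benjamini-Hochberg method over all genes tested. "Over 2-fold" is limma's test against a log2 difference of 1 at an adjusted p of 0.05. On simulated data for ES–LB against Ca (13925 genes), 200 of 200 genes changed 4-fold passed the adjusted p, with 6 false calls. Of these, 196 were called over 2-fold, with 0 false calls. In the deposited data 80.8% of genes passed the adjusted p, and recovery with so large a share of changed genes was not tested. In each library at least 96.4% of the low values lay within 0.1 of a whole read, but since the underlying counts were estimates that need not be whole, no count test was run. Nothing in the sources says that replicates were separate cultures or litters, so p-values rest on the spread between these samples, which may be technical. In the main fit that spread was pooled over all 9 groups, with early limb buds, branchial arch and tail bud among them. The p-values and SEs of ES–LB against Ca therefore do not rest on the spread of these libraries alone.

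The genes named are Myl2, Nkx2-5, members of the gene lists, the 10 largest differences each way (over 2-fold, 16 CPM or more on the higher side, no overlap between Ca and ES–LB) and up to 20 genes of the rule on heart and culture given in the text. The nearest gene outside that rule is named only to show its edge. The members and lists were chosen with earlier results of these data known. Muc16, Foxf1, Hbb-bs and Hbb-bt were listed but not analysed here. Cyr61, Ctgf, Mkl1 and Mkl2 are older symbols, as in the table. By GENCODE vM21, exons of Abcc9, Bmp4, Ddr2, Des, Eng, Gli1, Mab21l1, Myl2, Myl3, Nr2f2, Pcdh10, Tagln and Zeb1 share bases with a gene on the opposite strand, and those of Dnm3os, Zeb2 and agouti with one on the same strand, so their values are uncertain to that extent. Positions and promoters are from RefSeq. Alternatives were other scalings, pseudocounts, filters and limma settings, the 9 libraries alone, E10.5 HLB replicate 2 left out, each ES group alone, a replicate block and each library left out.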

Additional observations from a re-analysis of the deposited data

Results flagged for a closer look

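The following named genes differed between ES–HLB and ES–FLB at an adjusted p of 0.05 (limma, against no difference) with an estimated difference above 2-fold, so that their difference from Ca, the shared reference, was not the same in the ES groups. Values are ES–HLB minus ES–FLB on the log2 scale, with 3 libraries in each group. Among matrix genes and enzymes of RA and of the valve they were 4.58 for Fmod, 1.05 for Col6a1, -1.15 for Tnc, -2.43 for Aldh1a2 and -1.81 for Aldh1a1. Aldh1a1 was under 3 reads in every ES–HLB library. Among signal genes they were -1.23 for Tgfb2, -1.04 for Bmp4 and 1.72 for Hey2. Among transcription factors they were -4.32 for Tbx5, -2.85 for Gata5, -1.5 for Gata4, -1.16 for Wt1, -1.13 for Gli1, -1.52 for Nr2f2, 2.19 for Hand1 and 2.05 for Hoxa10. The epithelial Krt19 and Dmkn differed by 2.27 and 1.27, the protease gene Corin by -1.94 and the globin Hbb-y by 3.05. ES–HLB thus held more of Hbb-y, at 22.4 to 39.3 CPM against 2.7 to 3.29 in ES–FLB. The agents given differed between these groups by design and cannot be told apart from the limb type.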

How the results depend on the processing

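No count of genes moved by more than 1.5 times under any alternative. Stroma and valve genes over 2-fold higher in ES–LB numbered 32, and 25 to 36 under the alternatives. Those higher in Ca numbered 31 and ranged from 29 to 36, and those within 2-fold numbered 36 and ranged from 32 to 45. With each library left out in turn the 3 counts ranged from 29 to 35, 30 to 33 and 34 to 38. CPM as deposited moved the median log2 difference of all genes from 0.03 to 0.20, and Has2 was then over 2-fold higher in ES–LB than in Ca. The counts of all genes over 2-fold higher in ES–LB and in Ca were then 1632 and 1531, against 1376 and 1847. With the 9 libraries alone Postn, Dcn and Vcan were within 2-fold, and Tcf21 and Tbx18 over 2-fold higher in Ca. Of 169 results on single genes 152 kept their call and direction in all fits that left out 1 library and 121 under all other alternatives, where ES–FLB alone and ES–HLB alone changed more of them than any other setting did. With an ES group alone 4 differences past the adjusted p changed sign. With ES–HLB alone Aldh1a2 (-0.73, from 0.49) and Krt19 (0.43, from -0.71) did so against Ca. With ES–FLB alone Gas6 did so against Ca (-0.017, from 0.47) and Krt19 against the limb buds (-0.64, from 0.49). Differences of Fmod and Gata5 from the limb buds, not past the adjusted p over both ES groups, took either sign (Fmod -2.27 and Gata5 1.74 with ES–FLB alone, 2.31 and -1.10 with ES–HLB alone). Without Ca replicate 2 Vcan was within 2-fold of Ca (log2 difference 0.80), and Eln (-0.72), Krt19 (-0.74) and Myh11 (0.56) were not resolved. Without ES–FLB replicate 3, ES–HLB replicate 1 or ES–HLB replicate 2 Pdgfra against the limb buds was not resolved (0.84 to 0.86).

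Samples of the same number did not deviate together (r of -0.003 to 0.068 over 9 pairs), so the numbers were not taken as pairs. With a replicate block 1378 genes were over 2-fold higher in ES–LB and 1855 in Ca, and 32, 33 and 36 stroma and valve genes were higher in ES–LB, higher in Ca and within 2-fold. Depth limits the low genes, since 3 reads are 0.359 to 0.457 CPM, and differences of genes near that level depend on the pseudocount. The cause of the changes in call was not tested.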

Other observations

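Some ion-handling genes of heart muscle were not near 0 in the cultured mesenchyme, although all were over 2-fold higher in Ca. Slc8a1, the sodium-calcium exchanger, was at 81.99 to 88.1 CPM in ES–FLB, 63.2 to 65.8 in ES–HLB, 1369 to 1652 in Ca and 26.5 to 36.2 in the limb buds. Atp2a2, the calcium pump of the reticulum, was at 255 to 284 CPM in ES–LB, 1960.3 to 2195 in Ca and 310.03 to 389.98 in the limb buds. Of 14 genes for ion handling and hormones 3 were over 2-fold higher in ES–LB than in the limb buds and 1 was lower. Of 8 cardiac transcription factors 4 were over 2-fold higher and 1 was lower, and of 19 sarcomere genes 1 was higher. Over all genes 7.84% were higher and 3.74% lower, so the sarcomere share (5.26% higher) was not above that of all genes. These counts are a description, with no test of the difference between the groups of genes. Efemp1, a fibulin of the epicardial list, was at 43.4 to 45.96 CPM in ES–FLB, 25.6 to 29.6 in ES–HLB, 13.4 to 22.8 in Ca and 2.5 to 3.18 in the limb buds, and its log2 difference was 1.10 against Ca (SE 0.16, not resolved) and 3.40 against the limb buds.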
